A study of Brassica napus with 12 samples.

Results

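H3K27me3, trimethylation of lysine 27 on histone H3, was compared between seedlings and siliques (seed pods) of HZ62, a *Brassica napus* hybrid. The 4 libraries compared were the 2 H3K27me3 libraries of each tissue, of 12 chromatin immunoprecipitation sequencing (ChIP-seq) libraries in the series. They were chosen by their labels, and the merging of their peaks where they overlapped by 1 bp or more gave 27525 regions. Seedlings were 2 weeks old and siliques 3 to 5 cm long. All plants were labelled WT and grew in 16 h of light and 8 h of dark at 22 °C by day and 18 °C by night. The seedling libraries have leaf in their titles, and the tissue given for them, seedling, names them here. No allele or agent set the groups apart. The labels do not say whether the libraries of a tissue came from separate plants, so a p-value covers no more than the scatter among them, which may be technical. Flower bud H3K27me3 and the H3K4me3 of seedling and silique, which did not enter the choice of regions, served as further readouts.

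H3K27me3 is written by Polycomb repressive complex 2, whose catalytic subunits in *Arabidopsis thaliana* include CURLY LEAF and SWINGER. In plants the mark covers silent developmental genes, and it is removed from or added to different genes as organs form. *Arabidopsis* leaves carry it over floral organ genes, and separate Polycomb complexes act in the vegetative body and in the seed. H3K4me3, laid down at the start of transcribed genes by Trithorax-type methyltransferases, usually stands where H3K27me3 is absent. A silique holds the pod wall together with developing seeds. The tissue seedling and the word leaf in the titles do not settle whether stem or root was included. Every value is in any case a mixture over cell types. In such bulk chromatin, fewer cells with the mark and less mark per cell cannot be told apart.

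The seedling libraries held 3647059 and 3479885 fragments, and the silique libraries held 7441109 and 2654588. The second silique library was thus the shallowest of the 4 and its partner the deepest. The seedling lists held 22966 and 20339 peaks and the silique lists 23978 and 13579. Median peak width was 655 and 628 bp in seedling and 876 and 709 bp in silique. Peaks covered 21.8 and 18.1 Mb in seedling and 29.9 and 13.0 Mb in silique. The silique libraries thus enclosed both seedling libraries in peak number and in covered length, while both silique widths were above both seedling widths. An exact two-sided permutation test over 2 against 2 libraries gave p = 1 for peak number and for covered length and p = 0.3333 for width, the smallest p this design allows. The direction in peak number turned without the second silique library, when the seedling mean minus the silique list was -2325.5 peaks. Without the first silique library the seedling lists covered 7.01 Mb more than the second silique list. Library numbers in the titles were 65 and 66 for seedling, far from those of silique, and fragments averaged 226 and 228 bp in seedling and 272 and 283 bp in silique. Tissue, library series and fragment size cannot be told apart in these libraries.

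Libraries of a tissue were more alike than libraries of different tissues in seedling but not in silique. The base-pair Jaccard index, the shared covered length divided by the covered length of either list, was 0.654 within seedling and 0.427 within silique. Between tissues it was 0.469 to 0.569, so the silique pair was less alike than any seedling and silique pair. With only the 13579 strongest peaks of every list the silique pair reached 0.517, against 0.674 within seedling and 0.513 to 0.565 between tissues. The second silique library was almost contained in the first: 99.4% of its 11624 regions were in its partner. The first silique library had 23570 regions, of which 49.0% were in the second. The seedling libraries shared 77.2% and 90.9% of their regions.

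Most of the strong H3K27me3 was present in both tissues. Of the 27525 regions, 10116 (36.8%) were in all 4 libraries, and they were the widest class, with a median of 1742 bp. The next classes were 5335 regions of the first silique library alone and 4044 (14.7%) missing only from the second silique library. Regions in both seedling libraries and neither silique library, called seedling-only, numbered 1206, or 4.38% of all regions. Regions in both silique libraries and neither seedling library, called silique-only, numbered 687, or 2.5%. Seedling-only regions had a median width of 584.5 bp and silique-only regions of 921 bp. The remaining regions were in 1 seedling library alone (1932 and 750), in the second silique library alone (40), or in mixed sets of libraries.

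**Figure D1:**
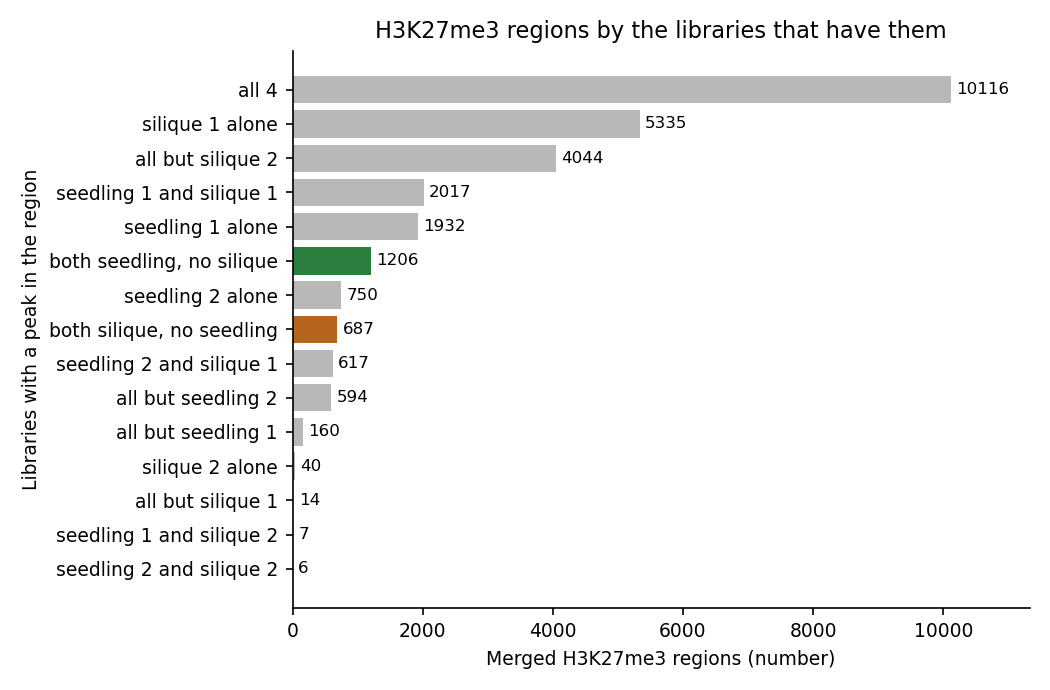
Number of merged H3K27me3 regions (x axis) by the libraries that have a peak in them (y axis). Regions in all 4 libraries (10116) form the longest bar, and the seedling-only (green, 1206) and silique-only (brown, 687) bars are shorter than that of the first silique library alone (5335).

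These counts moved with the libraries required and with the strength asked of a peak. Leaving out a library takes a condition out of the definition, which by itself raises the counts. When a library of the same tissue was left out, a peak in the other library of that tissue was enough. Seedling-only regions numbered 2189 without the first and 3263 without the second seedling library, 5808 without the first silique library and 1223 without the second. Silique-only regions numbered 1284 and 847 without the first and second seedling library, and 967 and 6028 without the first and second silique library. With equal numbers of peaks per list, 958 regions were seedling-only and 1349 silique-only, the opposite order. The order also turned when the scaled pileup in both libraries had to reach the median of each list that lacked the region, which left 52 seedling-only and 164 silique-only regions. The scaled pileup needed was 0.905 for seedling-only and 0.741 for silique-only regions, so the 52 and the 164 passed unlike thresholds. These are called strong below. Scaled pileup is the fragment coverage at the highest summit of a region, divided by the library's median over the regions in all 4 libraries. Those medians were 32 and 27 fragments in seedling and 62 and 21 in silique. At a pileup equal to the median, exact 95% Poisson intervals were 21.9 to 45.2, 17.8 to 39.3, 47.5 to 79.5 and 13.0 to 32.1. They cover only the counting error of a single region with that pileup, and are not intervals of the medians.

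Absence from the other tissue was most frequent among weak regions. Regions in both libraries of a tissue were ranked by scaled pileup and cut into 5 classes of nearly equal size. In seedling, 621 of 3076 regions (20.2%) in the lowest class had no silique peak, and 21 of 3076 (0.683%) in the highest. In silique, 390 of 2312 regions (16.9%) in the lowest class had no seedling peak, and 36 of 2312 (1.56%) in the highest. Regions present in one tissue alone were thus mostly weak where they were found.

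The seedling-only regions with the highest pileup lay together on sequence 1, the first of the 19 numbered sequences of the assembly. Sequence 1 positions 23357112 to 23358380 had pileups of 211 and 195 in seedling, which scaled to 6.59 and 7.22. The authors' fold over the local control was 13.5 and 12.9 there, the lowest of the 6 seedling-only regions ranked highest by pileup, so the rank holds for pileup alone. Whether copy number or read mapping plays a part was not tested. Positions 23350683 to 23351719 had 87 and 71, and positions 23355601 to 23355884 had 83 and 90. None of the 3 had an H3K27me3 peak in silique or flower bud or an H3K4me3 peak in seedling or silique. Within 100 kb there were 15 merged regions, and apart from 1 region in all 4 libraries they had peaks in seedling libraries only. Several of them were in a single seedling library, such as 23348049 to 23348619, with a pileup of 35 in the first and no peak in the second. The region in all 4 libraries, at 23277637 to 23287697, had pileups of 41 and 44 in seedling and 40 and 15 in silique. Its covered length was 9541 and 8895 bp in seedling and 3228 and 339 bp in silique, so it was also broader in both seedling libraries.

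A second group of high seedling-only regions lay on sequence 13. Positions 26449792 to 26450445 had pileups of 75 and 69 in seedling, and positions 26450968 to 26452234 had 58 and 56. The authors' fold over control was 30.2 and 30.4 at the first of them, above that of the regions on sequence 1. Both belonged to a run of 4 consecutive seedling-only regions from 26430121 to 26452234, and neither had a flower bud peak. The remaining region of the highest 6 differed: sequence 9 positions 29244899 to 29248062 had pileups of 64 and 55 in seedling and of 46 and 53 in flower bud. It carried H3K4me3 in both silique libraries and in neither seedling library. It was the only one of the 6 seen in flower bud.

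The highest silique-only regions were wider and mostly shared with flower bud. Sequence 4 positions 21120972 to 21123546 had scaled pileups of 2.82 and 2.67 in silique, and pileups of 303 and 343 fragments in flower bud. Sequence 1 positions 1144968 to 1149015 had 165 and 57 in silique, and sequence 5 positions 27414020 to 27415298 had 142 and 51. All 3 carried H3K4me3 in both seedling libraries and neither silique library. Sequence 2 positions 28293677 to 28294311, with 167 and 55 in silique, had the same H3K4me3 pattern but no flower bud H3K27me3. Its fold over control was 11.8 and 9.23, the lowest of the 6 silique-only regions ranked highest by pileup. Sequence 5 positions 1576011 to 1579932 had 178 and 47 in silique and carried H3K4me3 in all 4 libraries. There the H3K4me3 pileup was higher in seedling, with a log2 difference of 1.99 (limma adjusted p = 1.96e-06). The sixth, sequence 3 positions 1859608 to 1863363, had 159 and 46 in silique and no H3K4me3 peak in either tissue.

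**Figure D2:**
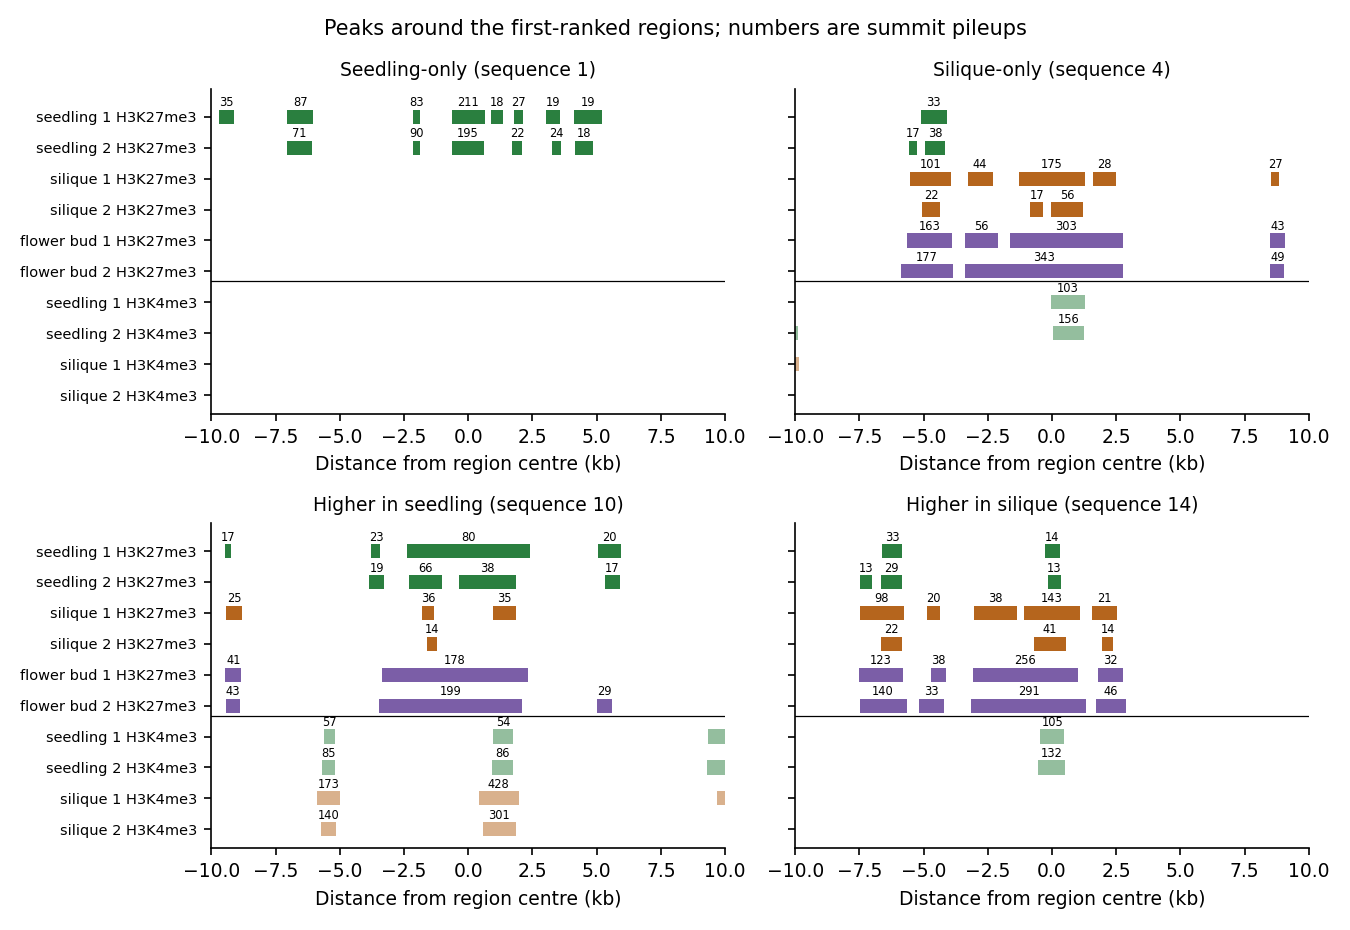
Peaks within 10 kb of the centre of the first-ranked region of each set (x axis, distance in kb), 1 row per library, with H3K27me3 above the line and H3K4me3 below it; numbers are summit pileups in fragments. The seedling-only region (211 and 195) has peaks in seedling alone, and the silique-only region (scaled pileups 2.82 and 2.67) and the region higher in silique (143 and 41) have H3K4me3 in both seedling libraries and neither silique library.

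Over the whole sets, H3K4me3 was most frequent in the tissue without H3K27me3. H3K4me3 was in both seedling libraries at 239 of 687 silique-only regions (34.8%, exact 95% interval 31.2 to 38.5), against 7.47% of all merged regions. It was in both silique libraries at 94 of them (13.7%), against 5.54% of all regions. At seedling-only regions the order was the opposite, with H3K4me3 in both silique libraries at 143 of 1206 (11.9%, 10.1 to 13.8) and in both seedling libraries at 67 (5.56%). Among the strong regions, 67.7% of the 164 silique-only regions had seedling H3K4me3 and 21.3% had silique H3K4me3. Of the 52 strong seedling-only regions, 26 (50%) had silique H3K4me3 and 7 (13.5%) had seedling H3K4me3. The share of the same tissue was thus also above that of all regions in both strong sets. Without the second silique library a peak in the first was enough, so the 6028 regions then called silique-only are another set. Of these 6028 regions, 13.2% had seedling H3K4me3, against 7.48% of all regions. Silique H3K4me3 was then at 6.10% of them, against 5.54%. With a seedling library left out, a peak in the other was likewise enough for a seedling-only region. The seedling-only share with silique H3K4me3 was 7.86% without the first and 6.83% without the second seedling library, against 5.53% of all regions each time. Without the first silique library it was 6.40%, against 5.02%.

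Flower bud H3K27me3 was in both bud libraries at 600 of 687 silique-only regions (87.3%) and at 692 of 1206 seedling-only regions (57.4%), against 82.9% of all regions. Among the strong regions it was at 154 of 164 silique-only (93.9%) and 30 of 52 seedling-only regions (57.7%). Of the 52, 21 had no peak in either bud library. With equal numbers of peaks per list the shares were 95.8% and 81.2%, against 94.9% of all regions, so the gap narrowed. Without the first silique library, seedling-only regions had to lack a silique peak in the second only. Of these 5808 regions, 86.9% were in flower bud, against 87.8% of all regions. Without the second silique library, a peak in the first was enough for a silique-only region. Of these 6028 regions, 67.0% were in flower bud, against 82.9%. The bud libraries held 11513204 and 10929797 fragments, more than any of the 4 compared.

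**Figure D3:**
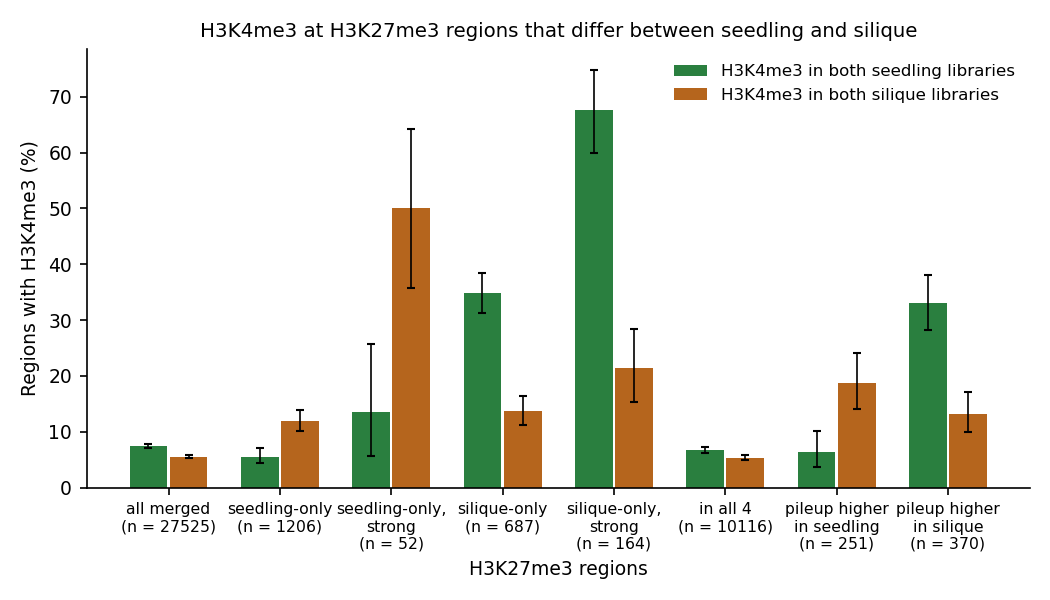
Share of H3K27me3 regions (y axis, percent) with H3K4me3 in both seedling (green) or both silique (brown) libraries, by class of region (x axis), with exact 95% binomial intervals as bars. Silique-only regions and regions higher in silique more often have seedling H3K4me3 (34.8% and 33.0%) than all merged regions (7.47%).

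The 4044 regions missing only from the second silique library were weaker and narrower than the regions in all 4 libraries, with a median width of 882 bp. Their median scaled pileup was 0.594 and 0.630 in seedling and 0.484 in the first silique library, where regions in all 4 libraries are at 1 by construction. Flower bud had 94.7% of them, and 4.53% and 5.56% had H3K4me3 in seedling and silique, against 7.47% and 5.54% of all regions. The 3 highest were nevertheless well above those medians. Sequence 5 positions 28169035 to 28170276 had pileups of 65 and 44 in seedling, 100 in the first silique library and none called in the second. Sequence 1 positions 33407279 to 33408375 had 50, 37 and 90, and sequence 2 positions 28026828 to 28027392 had 40, 37 and 77. Fold over control in the same libraries was 34.6, 22.4 and 31.5 at the sequence 5 region. It was lower at the sequence 1 region (12.9, 9.77 and 10.1) and the sequence 2 region (11.5, 11.1 and 10.9). All 3 were in both flower bud libraries and carried no H3K4me3 in seedling or silique.

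Pileup was tested in the 10116 regions of all 4 libraries with limma, on log2 of scaled pileup, with Benjamini-Hochberg adjustment over all of them. Pileup was higher in seedling at 251 regions (2.48% of those tested) and higher in silique at 370 (3.66%), together 6.14%, at an adjusted p under 0.05. In 83.4% of the regions the difference between tissue means was within 0.5 on the log2 scale. The SD between libraries of a tissue was typically 0.217 in seedling and 0.225 in silique, and the smallest difference called was 0.67. Differences that were called ran from -2.21 to 1.99, where a positive value is higher in seedling. A region needed a peak in every library, so values below the lowest peak of a list could not enter the test. That lowest scaled pileup was 0.429 in the second silique library, the highest of the 4. It was 0.210 in the first silique library and 0.281 in the first seedling library. The range and the counts of each direction hold above these floors only. How far the floors limited differences towards seedling was not tested. Both seedling libraries were above both silique libraries by 1 or more at 26 regions (0.257%), and the reverse held at 47 (0.465%).

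The number of calls moved more with single libraries than with scaling, which gave 249 to 356 regions higher in seedling and 308 to 395 higher in silique. There were 146 and 164 calls (seedling and silique higher) without the first seedling library, 100 and 179 without the first silique library, and 733 and 434 without the second. Without the second seedling library no region was called by limma, and 432 and 878 had an unadjusted p under 0.05, against 960 and 1234 with all 4. The order of the directions turned without the second silique library, with equal numbers of peaks per list (346 and 246), and among regions with a mean log2 pileup at or above the median (278 and 265).

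**Figure D4:**
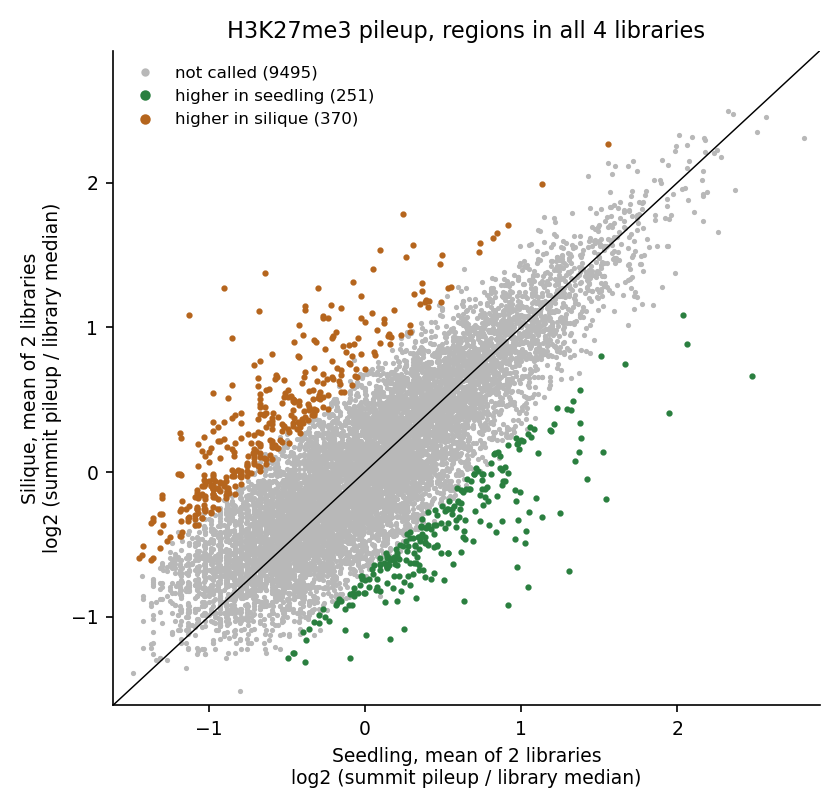
Mean log2 scaled H3K27me3 pileup of the 2 silique libraries (y axis) against that of the 2 seedling libraries (x axis) for the 10116 regions in all 4 libraries; the line marks equality. Most regions lie along the line, with 251 called higher in seedling (green) and 370 called higher in silique (brown).

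Among regions called on pileup, those with the largest difference and no overlap between tissues were looked at singly. Without overlap, seedling was above silique at 22.8% of all regions tested and silique above seedling at 28.2%. The 6 with the largest difference towards silique all carried H3K4me3 in both seedling libraries. Sequence 14 positions 64987471 to 64989623 had pileups of 14 and 13 in seedling and 143 and 41 in silique. The scaled values, 0.438 and 0.481 against 2.31 and 1.95, did not overlap, and the log2 difference was -2.21 (SE 0.20, limma adjusted p = 3.38e-05). H3K4me3 was in neither silique library there. Sequence 6 positions 20515231 to 20519793 had 19 and 13 in seedling and 138 and 55 in silique, and the difference was -2.17 (SE 0.21, limma adjusted p = 3.38e-05). At sequence 2 positions 2806085 to 2811246 the pileups were 21 and 17 against 168 and 52, and the difference was -2.01. Both regions had H3K4me3 in seedling alone, and the scaled values did not overlap in either.

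The other 3 of these regions lay on sequences 7 and 18. Sequence 7 positions 27874777 to 27877374 had pileups of 26 and 13 in seedling and 149 and 41 in silique, a log2 difference of -1.79. H3K4me3 was in all 4 libraries there, and its pileup was higher in seedling by 0.79 (limma adjusted p = 0.00115). Sequence 18 positions 40822942 to 40828547 had 19 and 14 against 134 and 35, and had H3K4me3 in both seedling libraries and 1 silique library. Sequence 18 positions 42997414 to 43002112 had 26 and 22 against 140 and 54, and had H3K4me3 in seedling alone. The seedling and silique scaled values did not overlap in any of the 6.

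Of the 6 regions with the largest difference towards seedling, 5 carried H3K4me3 in both silique libraries. Sequence 10 positions 22067510 to 22072318 had pileups of 80 and 66 in seedling and 36 and 14 in silique. The scaled values, 2.5 and 2.44 against 0.581 and 0.667, did not overlap, and the log2 difference was 1.99 (SE 0.20, limma adjusted p = 3.54e-05). H3K4me3 was in all 4 libraries there, and its pileup was lower in seedling, with a log2 difference of -1.98 (limma adjusted p = 1.92e-06). Sequence 10 positions 31388 to 33885 had H3K27me3 pileups of 68 and 54 against 36 and 12, and sequence 15 positions 44269 to 46668 had 67 and 46 against 33 and 11. Both had H3K4me3 in silique alone, and each had a log2 difference of 1.84 in H3K27me3.

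The remaining regions of that set included the one with the highest seedling pileup. Sequence 5 positions 477863 to 486696, 8834 bp wide, had scaled pileups of 6.22 and 5 in seedling and 1.82 and 1.38 in silique. Its log2 difference was 1.81 (SE 0.21, limma adjusted p = 0.0002), and it had no H3K4me3 in either tissue. Sequence 17 positions 43703684 to 43708258 had 91 and 81 against 63 and 16, and sequence 15 positions 29168463 to 29170669 had 68 and 49 against 35 and 15. Both had H3K4me3 in silique alone. In all 6 regions the 2 seedling scaled values were above the 2 silique values.

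**Figure D5:**
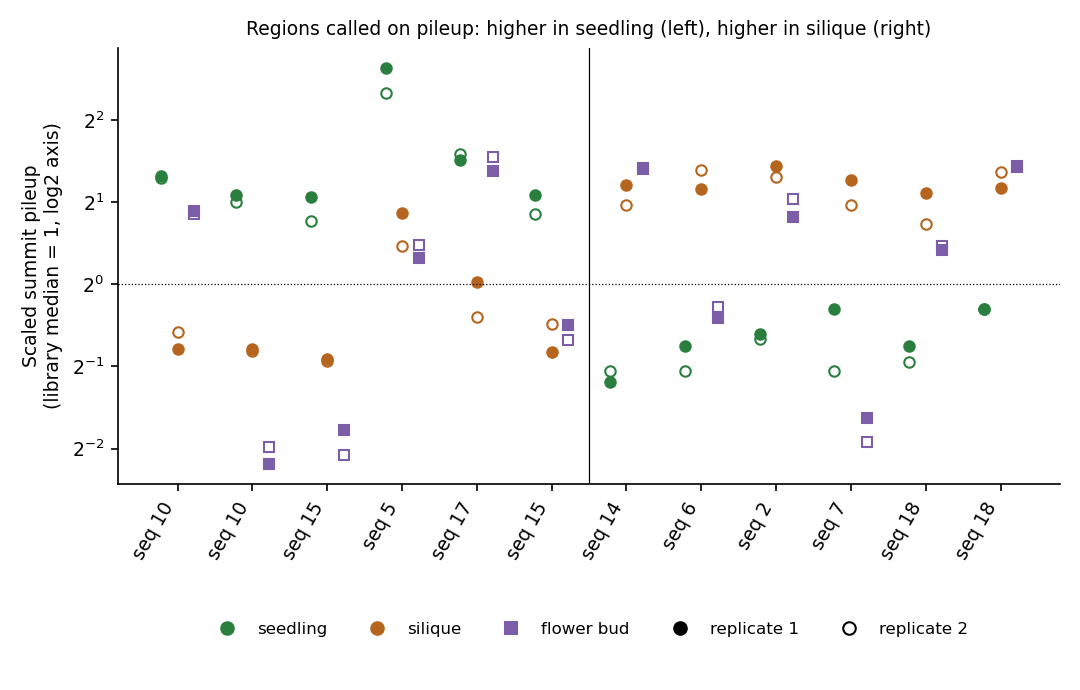
Scaled H3K27me3 summit pileup (y axis, log2 scale, library median at 1, dotted) in each seedling, silique and flower bud library at the 6 regions with the largest difference each way (x axis, by sequence number). Seedling and silique points do not overlap in any region, and flower bud lies with seedling in some regions and with silique in others.

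Over all regions called on pileup, the presence of H3K4me3 followed the same direction. H3K4me3 was in both seedling libraries at 122 of the 370 regions higher in silique (33.0%, exact 95% interval 28.2 to 38.0), against 6.75% of the 10116 regions tested. It was in both silique libraries at 49 of them (13.2%), against 5.30%. At the 251 regions higher in seedling it was in both silique libraries at 47 (18.7%, 14.1 to 24.1) and in both seedling libraries at 16 (6.37%). The share of regions higher in seedling with silique H3K4me3 was 26.0% without the first seedling, 27% without the first silique and 13.8% without the second silique library. The share of regions higher in silique with seedling H3K4me3 was 46.3% without the first seedling library.

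H3K4me3 pileup was fitted with limma over the 39725 H3K4me3 regions in all 4 H3K4me3 libraries, and 20.8% of them were higher in seedling and 24.8% in silique. Regions of H3K27me3 in all 4 libraries that overlapped one of these numbered 343, of which 114 (33.2%) had H3K4me3 higher in seedling and 86 (25.1%) higher in silique. Regions with H3K27me3 higher in silique included 46 of the 343, and H3K4me3 was higher in seedling at 34 of these and higher in silique at 2. Regions with H3K27me3 higher in seedling included 14, and H3K4me3 was higher in silique at 10 and higher in seedling at 1. Of the 47 regions called for both marks, 44 changed in opposite directions and 3 in the same direction. Among all 343 regions, called or not, the differences of the marks had opposite signs at 225 (65.6%). Across the 343 regions, which share libraries and one merged control and are not independent, the differences of the marks had Pearson r = -0.505 and Spearman rho = -0.450. The groups of H3K4me3 libraries carry the same gap in library numbers between tissues, with 53 and 54 for seedling.

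Flower bud was set beside the tissues at the regions called. At 69.3% of the 251 regions higher in seedling the mean scaled pileup of bud was nearer silique than seedling. At 253 of the 369 regions higher in silique with a peak in both bud libraries (68.6%) it was also nearer silique. Over the 10082 regions in all 4 libraries and both bud libraries it was nearer silique in 55.0%. Bud exceeded both tissues at 84 regions higher in silique and 21 higher in seedling, and was below both at 26 and 55. Over the 10082 regions it exceeded both tissues at 3317 and was below both at 3422. Called regions were selected for a wide gap between the tissues, so nothing is read from how often bud lay within it. At single regions bud stood outside both tissues, as at sequence 10 positions 31388 to 33885, where the bud pileups of 21 and 28 scaled to 0.219 and 0.255, below the 4 other libraries.

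Covered length within a region is the number of bases under a library's peaks, and the libraries differed in how far a region was broken into separate peaks. Among the 10116 regions, 21.2% and 24.1% were split into 2 or more peaks in seedling, 2.80% in the first silique library and 15.6% in the second. Peaks covered a median of 79.2% and 69.4% of the region in seedling and 99.3% and 56.9% in silique. Both seedling libraries thus lay between the silique libraries in covered share. In limma on log2 covered length scaled by the library median, 49 regions (0.484%) were wider in seedling and 153 (1.51%) wider in silique at an adjusted p under 0.05.

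The number of width calls moved with single libraries and with scaling. Without the second silique library limma called none, with 845 and 945 regions at an unadjusted p under 0.05, and without the first silique library 305 and 117 were called. Silique made up 75.7% of calls, but 37.9% when lengths were divided by the library's fragments (54 and 33 calls), which shifted the median of all regions by 0.28. Quantile normalization left 1 and 13 calls (92.9% silique) and cyclic loess 0 and 8 (100% silique), with 544 and 676, and 508 and 715, regions at an unadjusted p under 0.05. Of the regions wider in seedling, 32 of 49 were also called higher there on pileup, against 2.48% of all regions tested. Of those wider in silique, 67 of 153 were, against 3.66%. Both measures come from the same peaks, so they are not independent.

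Of the 6 regions with the largest width difference, 3 each way, 3 were also among the 12 with the largest pileup difference. Sequence 18 positions 40822942 to 40828547 was covered over 426 and 285 bp in seedling and 5606 and 3656 bp in silique, a log2 difference of -3.66 (SE 0.32, limma adjusted p = 9.54e-05). Sequence 9 positions 34658765 to 34664225 was covered over 326 and 1084 bp in seedling and 5442 and 3952 bp in silique, and had H3K4me3 in seedling alone. Merged regions were redrawn when a library was left out. Without the first silique library the log2 difference was -0.04 (limma adjusted p = 0.972) at the sequence 9 region and -1.90 at the sequence 18 region. Towards seedling, the region on sequence 1 at 23277637 to 23287697 had the largest difference, 3.18 (SE 0.53, limma adjusted p = 0.00783), and 2.01 without the second silique library. Sequence 13 positions 7780798 to 7785382 was covered over 4406 and 3958 bp in seedling and 1690 and 349 bp in silique, while its pileup difference was not called (0.68, limma adjusted p = 0.0537). In all 4 the covered lengths of the tissues did not overlap, which the ranking required. Without overlap in covered length, seedling was above silique at 21.1% of all regions tested and silique above seedling at 19.3%.

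None of the 3 widest regions was called on pileup or on covered length. Most regions tested shared this, since 6.14% were called on pileup and 2% on covered length. Sequence 3 positions 18757463 to 18775158, 17696 bp, had pileups of 69 and 58 in seedling and 142 and 49 in silique, which scaled to 2.16, 2.15, 2.29 and 2.33. Sequence 14 positions 1846468 to 1863157 had 167 and 138 against 262 and 74, and sequence 19 positions 61193992 to 61206709 had 94 and 77 against 194 and 58. The limma adjusted p on pileup was 0.816, 0.231 and 0.964, with log2 differences of -0.10 (SE 0.19), 0.42 (SE 0.20) and -0.02 (SE 0.20). None of the 3 carried H3K4me3 in either tissue. Of the 10116 regions tested, 6.75% had H3K4me3 in both seedling libraries and 5.30% in both silique libraries.

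Regions that differed were spread over the 19 numbered sequences. Sequences 1 to 10 were taken as the A subgenome and 11 to 19 as the C subgenome from their order and extent. Coordinates and sequence numbers are those of the files, and no source used here gives the build by name. Seedling-only regions made up 3.94% of regions on A and 4.77% on C, and silique-only regions 2.55% and 2.45%. Among regions tested for pileup, 2.62% on A and 2.35% on C were higher in seedling, and 4.07% and 3.27% higher in silique. Sequence 2 had the most regions higher in seedling, 32 of 680 (4.71%), and sequence 6 the largest share higher in silique, 21 of 385 (5.45%). Of the seedling-only regions, 22.6% followed directly on another seedling-only region along the sequence or preceded one. The same share was 13.0% for silique-only regions. The sets differed in size, at 4.38% and 2.5% of all regions, and a larger set has more such neighbours under random placement. The 2 shares therefore do not show which set clustered more, and neither was tested against random placement. Taken with the pileup calls, the longest run towards seedling held 5 regions on sequence 17, from 48322854 to 48334668. The longest towards silique held 4 on sequence 1, from 3407677 to 3423478.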

How the data were processed

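The sources used here name BWA, SAMtools, GATK and MACS2, per the submitters' processing notes, and name no genome build. The files name sequences by assembly identifiers, whose final number is printed. About 1 g of tissue per library was cross-linked with 1% formaldehyde and sonicated to 200 to 600 bp, per the labels' protocols. Each deposited list holds narrow peaks of 1 library, called by MACS version 2.2.7.1 from read pairs with a q cutoff of 1e-05, keeping at most 1 duplicate, per the file headers. The control, 1 merged library of 12042843 fragments, served all lists, per the file headers. The deposited pileup is a signal, the unscaled fragment coverage at the peak summit in these H3K27me3 libraries. Deposited p-values and q-values are on a −log10 scale, and fold enrichment, as deposited, is a ratio of pileup to control. It described peaks within a list and entered no test. Missing peaks mean only that none was called at that depth.

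Libraries are numbered in accession order within a tissue. Peaks were merged at 1 bp of overlap, and a peak that touched a region counted as the library having it. Pileup and covered length were compared with limma 3.58.1 (empirical Bayes, Benjamini-Hochberg over all tested regions, adjusted p under 0.05, no pseudocount), tested on simulated data. Only regions with a peak in all 4 libraries have a pileup in each, so a region that one tissue lost could not be tested. Counts of presence had no test. Alternatives were other scalings, a trend in the prior variance, a pseudocount of 1, a −log10 q of 10 or more, joining across 500 bp, coverage of 50% of a region, equal lists, a stronger-peak requirement and leaving out each library. Regions were named by rank: 6 each way by presence (the lower of the tissue's scaled pileups) and by pileup difference, 3 each way by covered length, the 3 widest, and 3 missing only from the second silique library. The regions, readouts and tests were chosen with earlier results of these data known. The run lists, the neighbourhood on sequence 1 and the H3K4me3 counts at pileup calls were chosen after values were seen. No annotation of the build was used, so regions carry no gene names. The 2 flower bud H3K4me3 libraries were not analysed here. The software was numpy 2.4.6, pandas 2.3.3 and scipy 1.17.1 under Python 3.11.15.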

Additional observations from a re-analysis of the deposited data

How the results depend on the processing

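No paired analysis was possible because the labels give library numbers and no replicate numbers shared between tissues. A peak missing from a list shows only that none was called at that depth. The cause of the shifts below was not tested. Regions in all libraries fell to 5216 when peaks had to cover 50% of a region. Requiring strong peaks left 52 seedling-only and 164 silique-only regions. Equal lists gave 1349 silique-only regions, a Jaccard index of 0.517 for the silique pair and 0.513 for the first seedling with the second silique library, and 246 regions higher in silique on pileup. Leaving out each library, which removes a condition a region must meet, gave 1223 to 5808 seedling-only and 847 to 6028 silique-only regions. The seedling minus silique difference then ran from -2325.5 to 8073.5 peaks, and from -9.93 to 7.01 Mb, with 0.403 Mb without the second seedling library.

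Counting H3K27me3 or H3K4me3 in 1 or more libraries gave flower bud at 70.9% of seedling-only and 91.8% of silique-only regions and seedling H3K4me3 at 38.6% of silique-only regions. Equal lists gave 81.2%, 95.8% and 24.4%, and silique H3K4me3 at 9.71% of silique-only regions. Leaving out each library also loosened what made a region seedling-only or silique-only, so the sets were not the same regions. Seedling-only regions then had flower bud at 48.2 to 86.9%, seedling H3K4me3 at 3.74 to 5.48% and silique H3K4me3 at 6.40 to 11.7%. Silique-only regions had 67.0 to 92.3%, 13.2 to 30.7% and 6.10 to 12.2%. Leaving out each H3K27me3 library except the second seedling library, without which no region was called, regions higher in seedling on pileup had silique H3K4me3 at 13.8 to 27%, and regions higher in silique had seedling H3K4me3 at 32.7 to 46.3% and silique H3K4me3 at 13.4 to 17.7%.

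Pileup calls ran from 0 to 733 towards seedling and 0 to 434 towards silique without each library, and a trend in the prior variance gave 384 towards seedling. Regions set apart by 1 or more on the log2 scale ran from 0.354 to 1.41% of those tested towards seedling and from 0.679 to 1.47% towards silique. Leaving out a library also leaves fewer values that must stand apart. With all 4 libraries the shares were 0.257% and 0.465%. Without each H3K4me3 library 5504 to 7594 and 6468 to 8552 regions were called for that mark.

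Covered length called 0 to 305 regions wider in seedling and 0 to 156 wider in silique without each library. It called 1 and 13 after quantile normalization, 0 and 8 after cyclic loess, 110 and 93 among stronger regions, and 22 and 65 at a −log10 q of 10 or more. It called 33 wider in silique when divided by fragments, 66 with equal lists, and 77 wider in seedling with the trend. The 18 pileup and width differences of named regions, the 3 widest regions not among them, were counted only where the region was still tested. That held for 10 of them with equal lists and for 6 at a −log10 q of 10 or more. The trend and the limit to stronger regions leave a log2 difference as it was, so they could not turn its sign. In the 218 alternatives counted the sign was kept, and 29 no longer passed the threshold. Of these, 12 were pileup differences without the second seedling library, with log2 values of 1.68 to 1.99 and -2.29 to -1.43 and prior degrees of freedom of 1.86 against 14.9. The width difference on sequence 9 from 34658765 fell to -0.04 without the first silique library. The 16 other width differences that lost the call were of at least 1.69 on the log2 scale.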
